A study of Canis lupus familiaris with 4 samples.

Results

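Transforming growth factor beta (TGF-beta) and the Hippo pathway effectors YAP and TAZ are signals by which epithelial cells adjust their matrix, cytoskeleton and growth. TGF-beta is secreted in a latent form held in the matrix, is released by activators such as thrombospondin, and binds paired receptor kinases that phosphorylate SMAD proteins. The SMADs then enter the nucleus and switch on matrix and contractile genes together with their own inhibitors. YAP and TAZ are coactivators that bind TEAD factors when the Hippo kinases are inactive, and several of their target genes are also TGF-beta targets. MDCK cells, an epithelial line from dog kidney, are widely used to study TGF-beta-induced loss of epithelial character.

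The genes described here are the members of a fixed list of 36 genes of these pathways and their targets. They were found as all probe sets whose platform gene symbol was on the list. The array held 74 such probe sets for 35 genes, out of 42924 probe sets and 15115 genes in all. ID2 had no probe set with its symbol alone. Where a gene had several probe sets, the brightest on average stood for it, and 32 of the 35 genes reached the floor in at least 1 array. That floor is an intensity of 46.3, the median of all values. AXL, SMAD7 and MYL9 stayed below it on all 4 arrays and were not tested.

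The data are 4 Affymetrix arrays of MDCKII cells, with 1 array for each combination of genotype and oxygen label. Cells labelled HIF1A WT or HIF1A KD (knockdown) had 24 h in normoxia and then 24 h more in either normoxia or hypoxia. The HIF1A protein is the subunit of hypoxia-inducible factor that oxygen keeps low. The sources used here do not give the knockdown method, the oxygen level, or whether the KD cells are 1 clone. They name no separate cultures either. Median intensities were 45.6 to 47.1, and Pearson's r over probe sets was 0.982 to 0.987 between arrays. Of 6 markers of kidney epithelium, 5 lay above the floor on all arrays (EPCAM, KRT8, KRT18, OCLN and CDH16), while CDH1, the epithelial cadherin, lay below it on all 4. The fibroblast markers COL1A1, COL1A2, COL3A1, PDGFRB, DCN and LUM were below the floor on every array, and PDGFRA, the last of that list, was above it on all 4 at 49.0 to 60.5. The summed intensity of the 7 fibroblast markers was 125 to 139 per array. Summed intensities were 195 to 296 for 5 endothelial, 302 to 373 for 4 leukocyte and 84.4 to 159 for 4 smooth muscle markers, and their part in the results was not tested. Among these CDH5 (104 to 178), KDR (47.3 to 66.1) and CD68 (177 to 250.0) were above the floor on all arrays.

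HIF1A mRNA went against the knockdown label. Its intensity was 3651 and 3435 in the arrays labelled WT and KD normoxia, and 675 and 625 in the arrays labelled WT and KD hypoxia. It thus divided the arrays by the oxygen label, so each direction below is that of the labels alone. If the arrays labelled KD normoxia and WT hypoxia changed places, the hypoxia and genotype terms below would trade values.

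With 1 array per group, a difference between a pair of arrays has no replicate check and is given as a value. All differences are on the scale log2(intensity + 16), which understates the change of dim genes. The test was an additive limma model of oxygen and genotype over the 4 arrays, fitted to all 9834 genes that reached the floor and called at a Benjamini-Hochberg adjusted p under 0.05. Its error comes from how unlike a gene's 2 differences were, pooled over genes of like intensity, and does not measure the spread between cultures. Where 2 arrays are said to lie above, below or without overlap of 2 others, that is a description. The share of all genes that divide so was not computed.

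In the labelled hypoxia term 10 of the 32 tested members rose and 1 fell. They were led by the matrix genes TGFBI and EFEMP1, the differentiation inhibitors ID1 and ID3, and the YAP targets ANKRD1 and CCN2. That is 31.2% and 3.12% of the members, beside 4.72% and 4.17% of all genes tested. In the genotype term (labelled KD minus WT) 6 members rose and 1 fell, 18.8% and 3.12%, beside 2.94% and 2.43% of all genes. The genes that rose in both terms were 4 (TGFBI, ANKRD1, ID3 and COL4A1), beside 0.366% of all genes. The list's median was 0.09 in the hypoxia term and 0.11 in the genotype term, beside 0.01 and -0.01 over all genes tested. The list was drawn up with earlier results of these arrays known, so its count of calls is a description. Without the intensity trend in limma's prior, TGFBI in the hypoxia term is the 1 call that remains, with 12 members at an unadjusted p under 0.05 for hypoxia and 11 for genotype. Without the floor, 3 members (TGFBI, EFEMP1 and ID3) are called for hypoxia and 0 for genotype by limma, with 14 and 13 at an unadjusted p under 0.05. Over all genes, 7 and 0 of 9834 were called without the trend, and 77 and 0 of 15115 without the floor. The share of all genes at that unadjusted p was not computed, so those counts have no background.

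**Figure D1:**
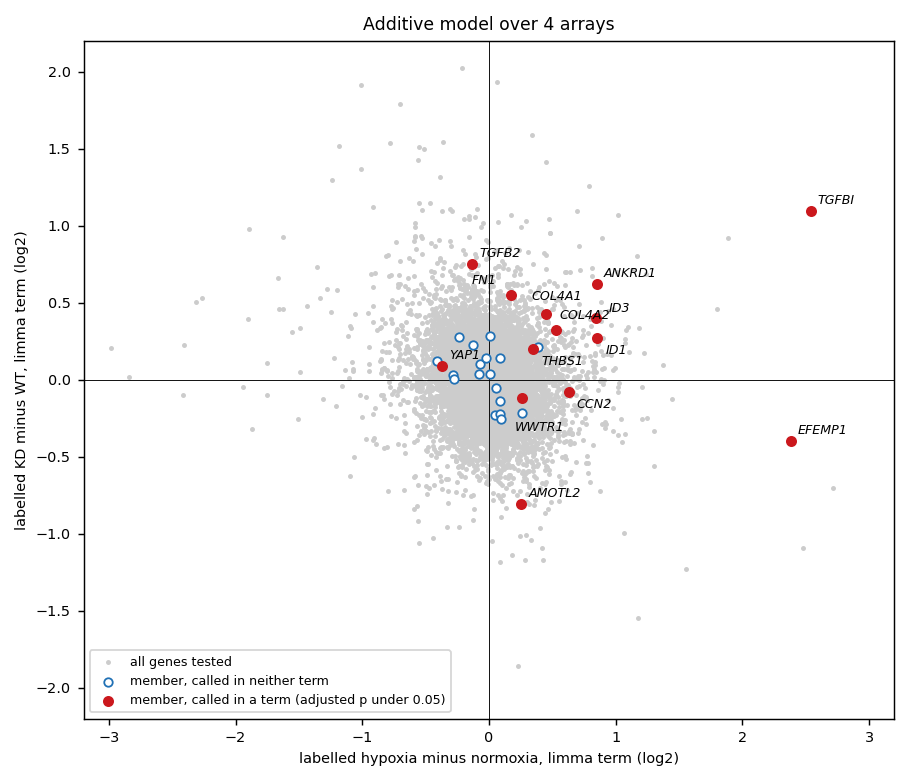
Each point is 1 of the genes tested, with its labelled hypoxia term in log2 on the horizontal axis and its labelled KD minus WT term in log2 on the vertical axis. Grey points are all genes (4 lie outside the axes), open circles are the members called in neither term and filled red circles those called in at least 1. TGFBI stands at 2.54 and 1.09, EFEMP1 at 2.38 and -0.40, and most uncalled members lie near the centre.

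Among the ligands, TGFB2 differed by genotype label and TGFB1 did not pass the test in either term. TGFB2, a secreted ligand of the TGF-beta receptors, read 889 in the array labelled WT normoxia, 1709 in KD normoxia, 921 in WT hypoxia and 1371 in KD hypoxia. Both arrays labelled KD lay above both labelled WT. The gene rose in the genotype term by 0.75 (SE 0.10, limma adjusted p = 0.00595), while its hypoxia term was -0.13 (adjusted p = 0.488). A second TGFB2 probe set followed with 421, 1000.5, 515 and 821 and gave a genotype term of 0.94. TGFB1, the other ligand of the list, read 107, 138, 105 and 115 in that order, and its genotype term of 0.22 (SE 0.14) had an adjusted p of 0.386.

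THBS1, thrombospondin 1, which releases TGF-beta from its latent complex, rose with labelled hypoxia. Its intensities were 7612 in the array labelled WT normoxia, 9596 in KD normoxia, 10611 in WT hypoxia and 11134 in KD hypoxia. Both hypoxia-labelled arrays were above both normoxia-labelled ones. The hypoxia term was 0.35 (SE 0.06, limma adjusted p = 0.00957), and a second probe set gave 0.47. The THBS1 genotype term of 0.20 (adjusted p = 0.097) was called under 4 alternatives. LTBP1, which tethers latent TGF-beta to the matrix, read 366 to 515 and was not called in either term (0.26 for hypoxia, adjusted p = 0.154). LTBP2, a related matrix protein, read 47.9, 70.5, 43.9 and 36.3, so it was above the floor in the normoxia-labelled arrays alone and its change has no measured size.

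Neither receptor passed the test. TGFBR2, the ligand-binding receptor kinase, read 1899 and 2125 in the arrays labelled WT normoxia and WT hypoxia, and 1668 and 1698 in those labelled KD. Both KD-labelled arrays were the lower ones, with a genotype term of -0.25 (SE 0.08, limma adjusted p = 0.0908). It was called with quantile scaling at 0.0311, a setting that called 1311 genes for genotype against 528 in the main fit. All 6 of its probe sets at the floor had a negative genotype term, though 1 of them reached the floor in 1 array alone. Over the median of its probe sets the TGFBR2 genotype term was -0.17 (adjusted p = 0.374). TGFBR1, the signalling partner, read between 79.4 and 107, with a hypoxia term of 0.08 and a genotype term of -0.22 (SE 0.16, adjusted p = 0.452).

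The SMAD transducers were not called in either term of the fit by brightest probe set, though SMAD2 and SMAD4 were called for genotype under some alternatives. SMAD4, the common partner, read 1179, 1469, 1212 and 1447 in the arrays of WT and KD normoxia and of WT and KD hypoxia, as labelled. Its hypoxia term was 0.01 (adjusted p = 0.963) and its genotype term 0.28 (SE 0.08, adjusted p = 0.0757). SMAD2, a receptor-activated SMAD, read 621, 775, 538 and 638 in the same order, with a hypoxia term of -0.24 (adjusted p = 0.157) and a genotype term of 0.27 (adjusted p = 0.123). For both genes the KD-labelled array was higher in either oxygen label. Over the median of its probe sets the SMAD2 genotype term was 0.38 (adjusted p = 0.0224), and SMAD4 was called for genotype under 4 alternatives, among them the 3 scalings. Each scaling also called more genes for genotype in all than the fit without it. SMAD3, the other receptor-activated SMAD, has no measured size of change. Its brightest probe set was above the floor in the array labelled KD hypoxia alone (49.7, against 27.4 to 41.5). Another was above it in the array labelled WT normoxia alone (47.5, against 25.1 to 34.95).

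Feedback inhibitors gave no call. SMAD6, which blocks BMP signalling, read 275 to 328. SKIL, a SMAD corepressor that TGF-beta both degrades and induces, read 46.7 to 62.1, close to the floor. SMAD7, the inhibitor induced by TGF-beta itself, read 4.42 to 13.5 and had no measured level here.

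ID1 and ID3, helix-loop-helix proteins that block differentiation factors and are typical targets of BMP signalling, rose with labelled hypoxia. ID1 read 240.1 in the array labelled WT normoxia, 280.8 in KD normoxia, 428 in WT hypoxia and 541 in KD hypoxia. ID3 read 437, 578, 793 and 1062 in the same order. In both genes the hypoxia-labelled arrays did not overlap the normoxia-labelled ones, and the array labelled KD was the higher within each oxygen label. The hypoxia terms were alike, at 0.85 for ID1 (SE 0.10, limma adjusted p = 0.00132) and 0.85 for ID3 (SE 0.09, adjusted p = 0.000752). ID3 also rose in the genotype term, by 0.40 (SE 0.09, adjusted p = 0.0395), and ID1 was at 0.27 (SE 0.10, adjusted p = 0.165). Whether the genotype terms of ID1 and ID3 differ was not tested. A second ID3 probe set read 92.1, 151, 203 and 254 and gave terms of 0.85 and 0.46.

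The matrix targets held the members with the highest hypoxia terms. TGFBI, a secreted adhesion protein named for its induction by TGF-beta, read 20.4 in the array labelled WT normoxia, 67.2 in KD normoxia, 210.2 in WT hypoxia and 435 in KD hypoxia. The arrays followed that order without overlap, and the first was below the floor, so the full size of the difference is not measured. The labelled hypoxia minus normoxia difference was 2.64 in the WT and 2.44 in the KD arrays, and the hypoxia term 2.54 (SE 0.14, limma adjusted p = 1.66e-05). In the genotype term TGFBI rose by 1.09 (SE 0.14, adjusted p = 0.00489), with differences of 1.19 in normoxia and 1.00 in hypoxia. The WT difference was 3.30 with a pseudocount of 1 and 1.70 with 64. TGFBI has 1 probe set.

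EFEMP1, fibulin 3, an extracellular glycoprotein of basement membranes and elastic tissue, read 141, 84.2, 671 and 604 in the arrays of WT and KD normoxia and of WT and KD hypoxia, as labelled. Both hypoxia-labelled arrays were far above both others, whereas the KD-labelled array was the lower within each oxygen label. EFEMP1 rose in the hypoxia term by 2.38 (SE 0.13, limma adjusted p = 1.76e-05), and its genotype term of -0.40 had an adjusted p of 0.124. That value was 0.0187 with quantile scaling, a setting that called more genes for genotype in all. A second EFEMP1 probe set, above the floor in the hypoxia-labelled arrays alone, read 18.4, 13.2, 72.0 and 61.8 and gave a term of 1.39, so its size is not measured.

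COL4A1 and COL4A2 encode the collagen IV chains of basement membranes and are next to each other among the protein-coding genes of the dog RefSeq gene table. COL4A1 read 737 in the array labelled WT normoxia, 1092 in KD normoxia, 1110.1 in WT hypoxia and 1364 in KD hypoxia. COL4A2 read 819, 989.9, 1144.5 and 1488 in that order. For COL4A1 the middle pair of arrays were nearly equal, and for both genes the array labelled WT normoxia was lowest and that labelled KD hypoxia highest. Both genes rose with labelled hypoxia, COL4A1 by 0.45 (SE 0.09, limma adjusted p = 0.0196) and COL4A2 by 0.53 (SE 0.09, adjusted p = 0.00534). In the genotype term COL4A1 rose by 0.43 (SE 0.09, adjusted p = 0.0362) and COL4A2 was at 0.32 (SE 0.09, adjusted p = 0.0613), a value called under 7 of the alternatives. Over the median of its probe sets the COL4A2 hypoxia term was 0.26 (adjusted p = 0.159). The further COL4A1 probe sets gave hypoxia terms of 0.52 and 0.39 and genotype terms of 0.39 and 0.11. The dimmer of them was called in neither term (limma adjusted p = 0.0765 for hypoxia and 0.673 for genotype, over all probe sets). A second COL4A2 probe set was below the floor.

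FN1, fibronectin, differed mainly by genotype label in its brightest probe set. That probe set read 2208, 3379, 2601 and 3672 in the arrays of WT and KD normoxia and of WT and KD hypoxia, as labelled. Both KD-labelled arrays were above both WT-labelled ones, and FN1 rose in the genotype term by 0.55 (SE 0.07, limma adjusted p = 0.00431), with a hypoxia term of 0.18 (adjusted p = 0.147). Its 3 further probe sets did not follow this pattern. In the fit over all probe sets, a pair of them gave genotype terms of 0.18 and 0.33 and hypoxia terms of 0.52 and 0.58. That pair was called for hypoxia (limma adjusted p = 0.0282 and 0.0303) and not for genotype (0.494 and 0.229). The last probe set gave -0.11 for genotype and -0.24 for hypoxia and was called in neither. Taking the median over the 4 probe sets, the FN1 genotype term was 0.03 (adjusted p = 0.914), so the genotype call rests on 1 probe set.

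**Figure D2:**
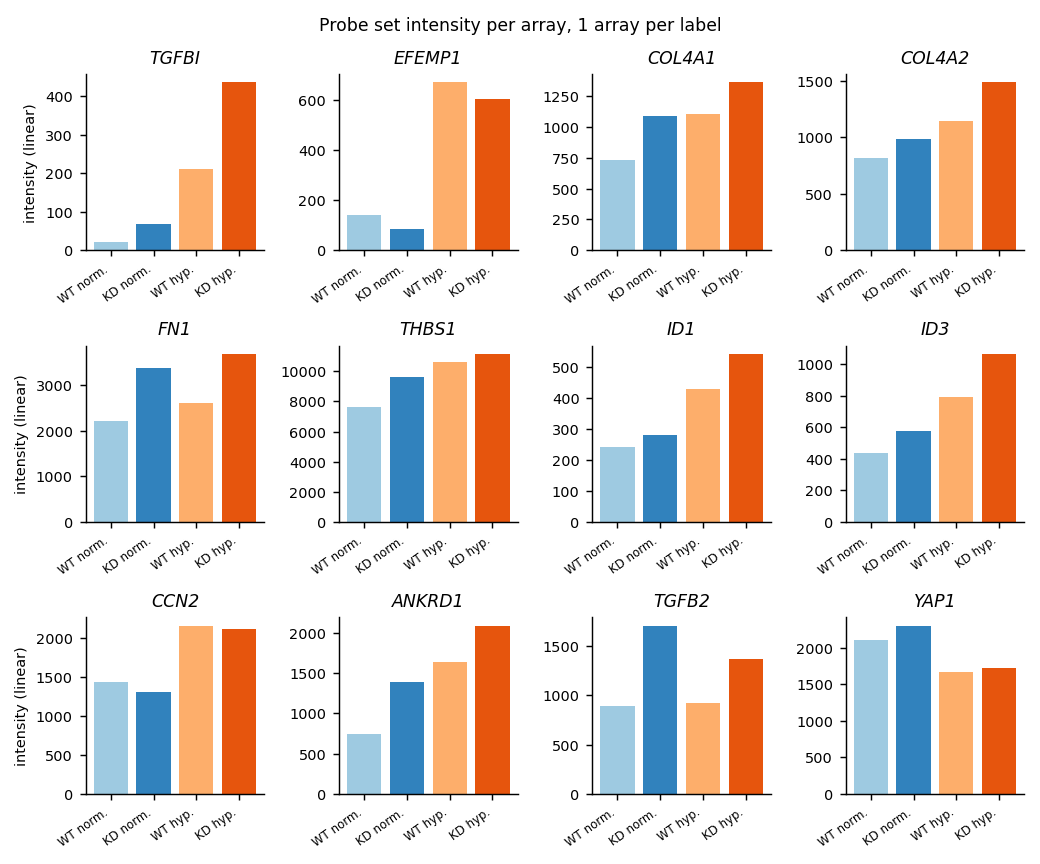
Bars give the deposited probe set intensity on a linear scale for each of the 4 arrays, named by their labels (norm., normoxia; hyp., hypoxia), for 12 members, with 1 array per bar and so no error bars. TGFBI climbs from 20.4 to 435 and EFEMP1 is high in both hypoxia-labelled arrays, while TGFB2 and FN1 are high in both KD-labelled arrays and YAP1 is lower in both hypoxia-labelled ones.

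The contractile targets showed no call. TAGLN, transgelin, an actin-binding protein of smooth muscle, read 91.7 and 91.9 in the normoxia-labelled arrays and 70.7 and 74.5 in the hypoxia-labelled ones. Those groups did not overlap, and the hypoxia term was -0.28 (SE 0.16, limma adjusted p = 0.329). TPM1, tropomyosin 1, read between 9035 and 9783, with a hypoxia term of 0.06 (SE 0.04). ACTA2, smooth muscle actin, was above the floor in the array labelled WT normoxia alone (51.7, against 29.6 to 39.9 or 40.0 elsewhere), and the light chain gene MYL9 read 22.9 to 38.1. A further probe set shared by ACTA2 and ACTA1, and another shared by MYL9 and a second gene, were left out.

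Of the coactivators, YAP1 fell and WWTR1 (TAZ) rose with labelled hypoxia. YAP1 read 2100.5 in the array labelled WT normoxia, 2300.3 in KD normoxia, 1668 in WT hypoxia and 1725 in KD hypoxia. Neither hypoxia-labelled array reached the lower normoxia-labelled one, and the term was -0.37 (SE 0.07, limma adjusted p = 0.0147). WWTR1 read 3503, 3382, 4409 and 3867 in the same order, and its hypoxia term was 0.26 (SE 0.06, adjusted p = 0.037). A second WWTR1 probe set, reading 536 to 600.0, gave 0.06, and over the median of both the term was 0.16 (adjusted p = 0.227). The TEAD factors that carry YAP and TAZ on DNA were not called. TEAD1 read 67.1 to 87.3, and TEAD4 read 299.9 to 353.

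Of the 6 tested YAP and TEAD targets, 2 rose and 0 fell with labelled hypoxia (33.3% and 0%, where 4.72% and 4.17% of all genes did). By genotype 1 rose and 1 fell, each 16.7% of the list, beside 2.94% and 2.43% of all genes. ANKRD1, a nuclear ankyrin repeat protein and a widely used YAP readout, read 744 in the array labelled WT normoxia, 1395 in KD normoxia, 1642 in WT hypoxia and 2091 in KD hypoxia. Each step in that order was upward, and the difference by oxygen label was 1.12 in the WT and 0.58 in the KD arrays. ANKRD1 rose in both terms, by 0.85 for hypoxia (SE 0.12, limma adjusted p = 0.00265) and 0.62 for genotype (SE 0.12, adjusted p = 0.0223). A second probe set read 144, 253, 334 and 389 and gave 0.86 and 0.48.

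CCN2, connective tissue growth factor, read 1435, 1310, 2155 and 2108 in the arrays of WT and KD normoxia and of WT and KD hypoxia, as labelled. It divided by the oxygen label without overlap and rose by 0.63 (SE 0.08, limma adjusted p = 0.00132), with a genotype term of -0.08 (adjusted p = 0.581). CCN1, the other matricellular YAP target of the same family, read 13676 to 14388 and had a hypoxia term of 0.01 (SE 0.04, adjusted p = 0.926) and a genotype term of 0.04 (adjusted p = 0.648). Its dimmer probe set read 1928, 2467, 1640.4 and 2066 and gave -0.24 for hypoxia (adjusted p = 0.061) and 0.34 for genotype (adjusted p = 0.0126). Over the median of both, the CCN1 genotype term was 0.19 (adjusted p = 0.0341), so the genotype call depends on the probe set. The difference between CCN1 and CCN2 was not tested.

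AMOTL2, an angiomotin that holds YAP in the cytoplasm and is itself a YAP target, read 93.7 and 137 in the WT-labelled arrays and 57.2 and 58.7 in the KD-labelled ones. It fell in the genotype term by 0.81 (SE 0.18, limma adjusted p = 0.0345), and in the hypoxia pair the difference was -1.04, at the level of 2-fold. LATS2, a Hippo kinase induced by YAP as feedback, read 1086, 983, 1197 and 958 in the usual order, and its genotype term of -0.23 (SE 0.09) had an adjusted p of 0.171. The LATS2 genotype term over the median of its probe sets was -0.43 (adjusted p = 0.0375), which is past the threshold. AJUBA, a LIM protein that restrains the LATS kinases, read 107 to 126, and the receptor kinase AXL read 14.6 to 32.1, below the floor.

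Differences of at least 2-fold between a pair of arrays were few. In the WT-labelled pair, hypoxia against normoxia, 3 of the 32 members (TGFBI, EFEMP1 and ANKRD1) were higher and 0 lower, beside 0.6% and 0.569% of all genes. In the KD-labelled pair 2 (TGFBI and EFEMP1) were higher and 0 lower, beside 0.559% and 0.997%. Between the arrays labelled KD and WT, 1 member was higher (TGFBI) and 0 lower in normoxia, beside 0.854% and 0.325% of all genes. In hypoxia 0 were higher and 1 was lower (AMOTL2), beside 0.519% and 0.356%. From WT normoxia to KD hypoxia, the labels that an exchange of the other two arrays would leave in place, 5 members were higher and 0 lower, beside 1.02% and 0.773%. These were TGFBI (3.63), EFEMP1 (1.98), ANKRD1 (1.47), ID3 (1.25) and ID1 (1.12).

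The difference by oxygen label had the same sign in WT and KD arrays for 22 of 32 members (68.8%, beside 66.3% of all genes tested), which is near the background. The KD minus WT difference had the same sign in both oxygen labels for 26 of 32 (81.2%, beside 66.6%). None of the 32 members had responses to labelled hypoxia that differed 2-fold between WT and KD arrays, where 1.57% of all genes did. For a list of 32, a count of 0 is near that background. ANKRD1 was at 0.55 and EFEMP1 at -0.50.

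**Figure D3:**
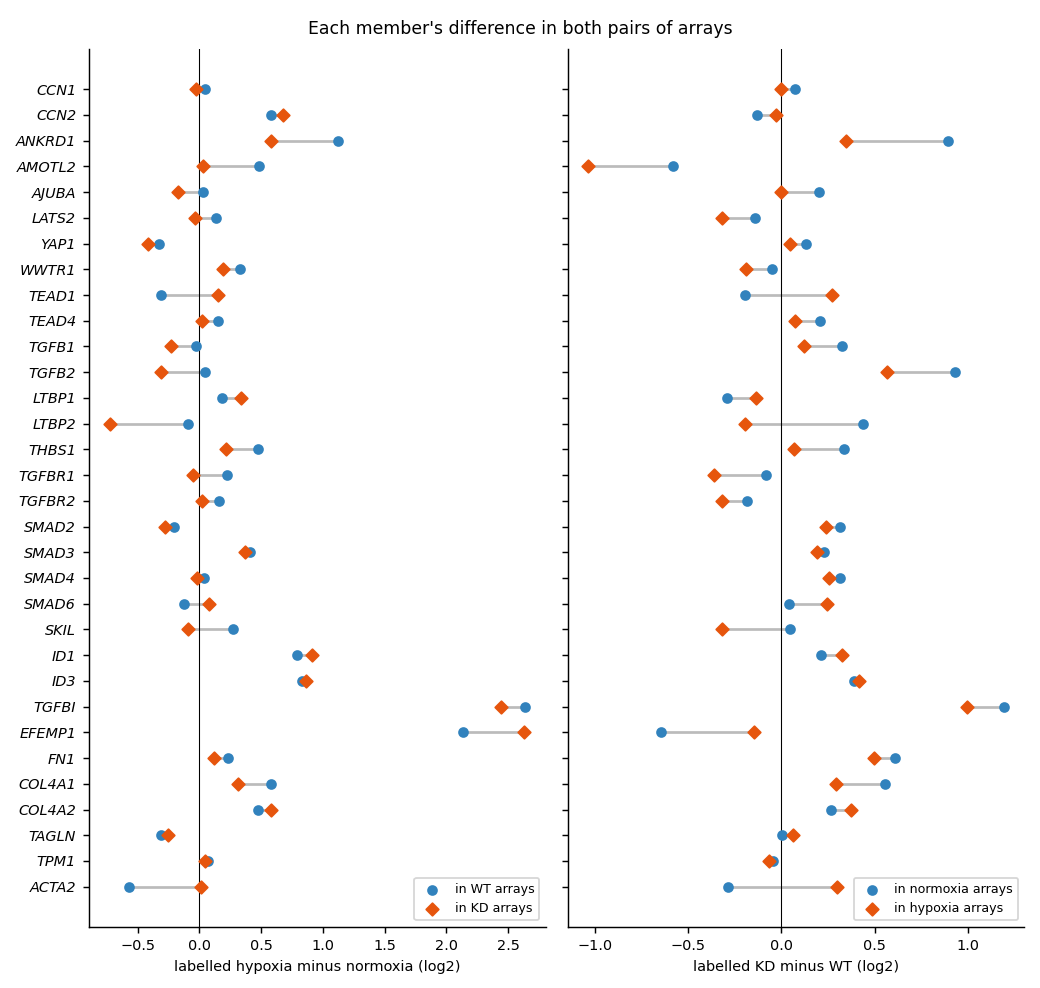
For each of the 32 tested members the left panel gives the labelled hypoxia minus normoxia difference in log2 in the WT arrays (blue circles) and KD arrays (orange diamonds). The right panel gives labelled KD minus WT in the normoxia arrays (blue circles) and hypoxia arrays (orange diamonds), and grey lines join the 2 values of a gene. TGFBI and EFEMP1 lie above 2 in both responses, ID1 and ID3 have nearly equal responses, and TEAD1 and ACTA2 have values on either side of 0.

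Probe sets gave a further view of the calls. Of the 11 members called for hypoxia, 7 had another probe set at the floor, and all 8 such probe sets had the same sign as the one that stood for the gene. Of the 7 called for genotype, 5 had another probe set, and 7 of 8 probe sets had the same sign, the exception being 1 of FN1. Probe sets of 1 gene share the same RNA and arrays, so they bear on the probe and not on the cultures.

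**Figure D4:**
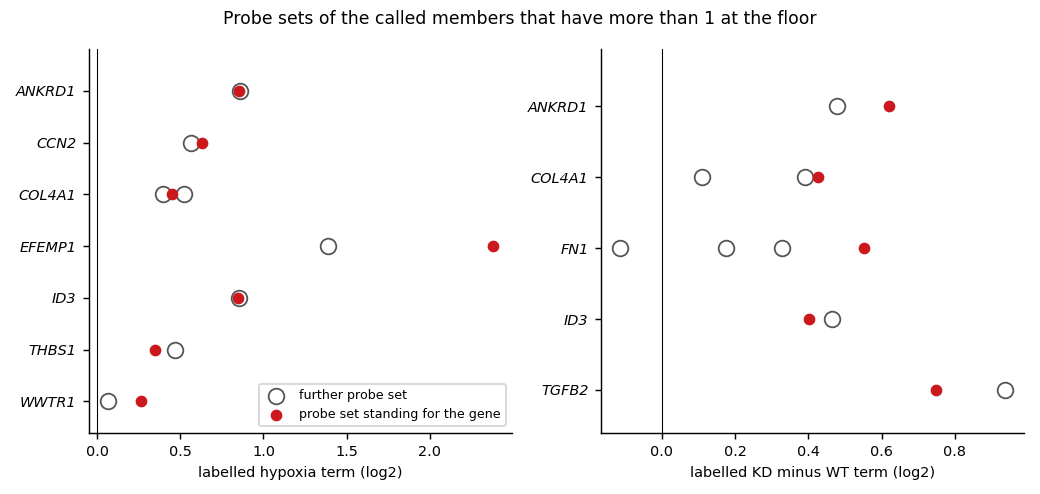
Limma terms in log2 (left, labelled hypoxia; right, labelled KD minus WT) of the called members with more than 1 probe set at the floor. Red points are the probe set that stands for the gene and open circles the others, from the fit over all probe sets. ANKRD1 and ID3 nearly coincide in the hypoxia term, EFEMP1 differs in size, and FN1 spreads from -0.11 to 0.55 in the genotype term.

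The other genes of these pathways were taken from 7 lists of 105 genes, of which 95 had a probe set and 71 were tested. In the hypoxia term 5 rose and 10 fell (7.04% and 14.1%, beside 4.72% and 4.17% of all genes), while by genotype there were 4 rises and 1 fall (5.63% and 1.41%, beside 2.94% and 2.43%). BMP and activin signalling held 6 of the 10 falls. Of the 11 tested BMP and activin ligands and antagonists, 0 rose and 4 fell with labelled hypoxia, and of the 6 tested receptors and coreceptors 0 rose and 2 fell.

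FST, follistatin, which binds and neutralises activin, read 3288 and 3632 in the arrays labelled WT and KD normoxia, and 847 and 1455 in those labelled WT and KD hypoxia. It fell by 1.62 (SE 0.13, limma adjusted p = 0.000141), and its genotype term of 0.46 (adjusted p = 0.0711) was called under 6 alternatives. INHBA, the activin A subunit, read 2769, 4000.3, 2342 and 2929 in the arrays of WT and KD normoxia and of WT and KD hypoxia, as labelled. INHBA fell with hypoxia by 0.34 (SE 0.07, adjusted p = 0.0204) and rose with genotype by 0.42 (SE 0.07, adjusted p = 0.0151). The ligands BMP4 and BMP2 fell with labelled hypoxia as well, BMP4 by 0.83 (SE 0.12, adjusted p = 0.00254) and BMP2 by 0.68 (SE 0.10, adjusted p = 0.00303). BMP4 read 422 and 431 in normoxia against 259 and 209 in hypoxia, and BMP2 read 471 and 591 against 281 and 369.6. The BMP2 genotype term of 0.35 (adjusted p = 0.0779) was called under the 3 scalings, each of which called more genes for genotype in all.

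BAMBI, a decoy receptor that blocks TGF-beta and BMP receptors, read 62.1 and 106 in the normoxia-labelled arrays. It read 17.5 and 28.8 in the hypoxia-labelled ones, both below the floor, so its fall (term -1.33, limma adjusted p = 0.00629) has no measured size. The receptor ACVR1 fell by 0.49 (SE 0.08, adjusted p = 0.00762) in its brightest probe set, whereas over the median of its 2 probe sets the term was -0.16 (adjusted p = 0.384). SMAD5, a transducer of BMP signals, rose by 0.67 (SE 0.16, adjusted p = 0.0326), from 61.6 and 62.0 in normoxia to 108 in both hypoxia-labelled arrays. ID1 and ID3, described above, were higher in the arrays where BMP2, BMP4 and BAMBI were lower and SMAD5 higher. ACVR1 was lower in those arrays too, and SMAD6 hardly differed (hypoxia term -0.02). BMP7, a further BMP ligand, went the other way from BMP2 and BMP4, reading 701 and 821 in normoxia and 823 and 979 in hypoxia. It was not called (hypoxia term 0.24, limma adjusted p = 0.136). A link among these genes was not tested.

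CDKN2B, a cyclin-dependent kinase inhibitor induced by TGF-beta, rose in both terms. It read 100.0 in the array labelled WT normoxia, 196 in KD normoxia, 267 in WT hypoxia and 399 in KD hypoxia, the same order of arrays as TGFBI. Its terms were 1.13 for hypoxia (SE 0.12, limma adjusted p = 0.000809) and 0.71 for genotype (SE 0.12, adjusted p = 0.0158). COL5A1, a fibrillar collagen chain, rose with hypoxia by 0.67 (SE 0.14, adjusted p = 0.0165) in the 1 of its 4 probe sets that reached the floor. CNN3, an actin-binding calponin, fell by 0.79 (SE 0.11, adjusted p = 0.00234), and TPM4, another tropomyosin, by 0.18 (adjusted p = 0.0399). Over the median of its 6 probe sets TPM4 fell by 0.48 (adjusted p = 0.000716), and single probe sets ran from -0.75 to 0.22. CDKN1A rose by 0.28 in the genotype term (adjusted p = 0.044), but its genotype term was -0.04 and its hypoxia term -0.34 over the median of its 3 probe sets.

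**Figure D5:**
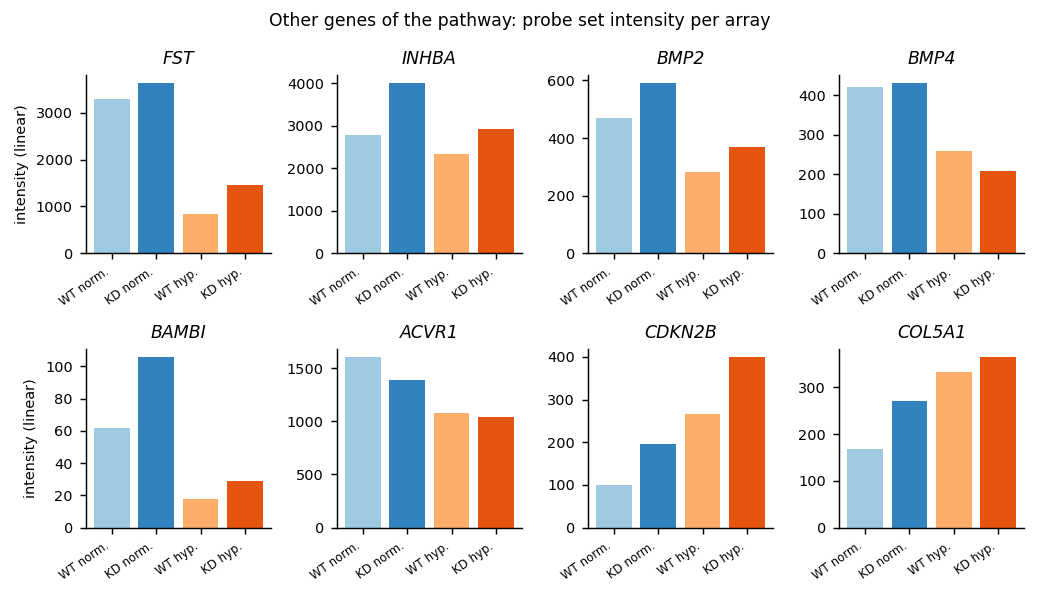
Bars give the deposited probe set intensity on a linear scale in the 4 arrays, named by their labels, for 8 genes of these pathways outside the 36, with 1 array per bar. FST, BMP2, BMP4, BAMBI and ACVR1 are lower in both hypoxia-labelled arrays than in both normoxia-labelled ones, and CDKN2B climbs from 100.0 to 399.

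In the Hippo list 1 of 14 tested genes rose and 0 fell with labelled hypoxia, and by genotype 1 fell and 0 rose. Each such gene is 7.14% of the list, where 4.72% of all genes tested rose with hypoxia and 2.43% fell by genotype. LATS1, the kinase that phosphorylates YAP, read 193 and 232 in the WT-labelled arrays and 111 and 129 in the KD-labelled ones, and fell by 0.75 (SE 0.12, limma adjusted p = 0.0127). Over the median of its 2 probe sets the LATS1 term was -0.19 (adjusted p = 0.482). WWC1 (KIBRA), a scaffold upstream of the LATS kinases, rose with hypoxia by 0.22 (SE 0.05, adjusted p = 0.0318), while over the median of its 2 probe sets the term was 0.19 (adjusted p = 0.0806). Its genotype term of -0.21 (adjusted p = 0.0521) was called under 8 alternatives, and over that median it was -0.33 (adjusted p = 0.00402). Among 9 further YAP targets tested, CCDC80 rose by 0.38 (SE 0.06, adjusted p = 0.00423) and BIRC5 fell by 0.35 (SE 0.09, adjusted p = 0.0459), each 11.1% of that list, with 0 called for genotype. The BIRC5 term was -0.30 (adjusted p = 0.0504) over the median of its probe sets. In the latency list 1 of 7 tested genes fell and 0 rose with hypoxia, and by genotype 1 rose and 0 fell. Each is 14.3% of the list, where 4.17% of all genes fell with hypoxia and 2.94% rose by genotype. LTBP3 fell with hypoxia (-0.46, adjusted p = 0.0204, and -0.33, adjusted p = 0.424, over the median of its probe sets). The integrin ITGAV rose with genotype (0.28, adjusted p = 0.0434). A second ITGAV probe set gave 0.27 (limma adjusted p = 0.128, over all probe sets), and the others lay below the floor. Of the genes named here outside the 36, HIF1A alone kept its call (hypoxia term) in limma without the intensity trend.

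Of the 32 tested members, 10 were lowest in the array labelled WT normoxia and highest in that labelled KD hypoxia (31.2%, beside 10.4% of all genes tested). These were TGFBI, ID1, ID3, ANKRD1, THBS1, COL4A1, COL4A2, FN1, TEAD4 and SMAD3. In 8 of them, all but FN1 and TEAD4, the intensity climbed in the order WT normoxia, KD normoxia, WT hypoxia, KD hypoxia, beside 5.63% of all genes. SMAD3 lay below the floor in 3 of the arrays. The order is that of each gene's brightest probe set. A second probe set at the floor kept it for ANKRD1, ID3 and THBS1. A further SMAD3 probe set was highest in WT normoxia (47.5), and 1 of FN1 ran from 246 in WT normoxia to 189 in KD hypoxia. The dimmest COL4A1 probe set read 171 in WT hypoxia and 169 in KD hypoxia. The order was noticed in the values themselves, so it is a description and no test was made of it.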

How the data were processed

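Total RNA of the 4 samples was turned into biotinylated cRNA from 100 ng with an Affymetrix 3' IVT kit, per the labels' protocols. The values are linear probe set intensity as deposited by the authors. The sources used here do not name the software, background correction or scaling, and detection calls were not used. Between 1065 and 1129 values per array were exactly 1. Trimmed means (2% left out at either end) were 310.3 to 315. Of 42924 probe sets, 29254 had 1 gene symbol, 439 several and 13231 none in the platform annotation. All 35 members with a probe set matched RefSeq (UU_Cfam_GSD_1.0) by gene ID and symbol, and no coordinates are given.

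Values were turned to log2(intensity + 16). Genes whose highest value reached the 50th percentile of all log2 values (5.96) were tested with limma 3.58.1 in R 4.3.3 (lmFit; eBayes with trend, 8.10 prior and 1 residual degree of freedom), two-sided, adjusted over 9834 genes. The number of arrays limits the precision. The code was tested on simulated data.

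Members and lists were chosen with earlier results of these data known. Any member could be named. Of the other lists, genes called or at least 2-fold apart were named, at most 5 per list, with the uncalled BMP7 beside BMP2 and BMP4. Alternatives were 3 scalings, the median over probe sets or each probe set, no floor or a floor at the 75th percentile, pseudocounts of 1 and 64, a 3-fold threshold, and the prior without trend or robust.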

Additional observations from a re-analysis of the deposited data

Results flagged for a closer look

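For 11 of the 32 tested members, the labelled WT and KD arrays, or the normoxia and hypoxia arrays, differed in opposite directions. For 10 the response to labelled hypoxia had opposite signs in WT and KD, and for 6 the KD minus WT difference had opposite signs in normoxia and hypoxia. The signs were the same for 68.8% and 81.2% of the members, beside 66.3% and 66.6% of all genes tested. Opposite signs were thus no more frequent among the members than over all genes. The KD minus WT difference in hypoxia was -4.3e-05 for CCN1 and -0.0013 for AJUBA, next to none. With 1 array per group, none of the opposite differences was tested. The value given is the log2 response in WT minus that in KD. It was 0.36 for TGFB2, 0.18 for LATS2, 0.06 for SMAD4, -0.21 for SMAD6 and 0.28 for TGFBR1, with opposite responses to labelled hypoxia. It was -0.46 for TEAD1, 0.36 for SKIL, 0.21 for AJUBA, 0.07 for CCN1 and -0.58 for ACTA2, with opposite signs in both comparisons. For LTBP2 it was 0.63, with an opposite genotype difference. ACTA2 and LTBP2 lay below the floor in 3 and 2 arrays, so their sizes are not measured, and the other 9 were above it on all arrays.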

How the results depend on the processing

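The calls rest on the prior of limma and on the floor. Of the 32 tested members 11 were called for hypoxia and 7 for genotype. Limma without the intensity trend called 1 and 0 (12 and 11 at an unadjusted p under 0.05), and without the floor 3 and 0 (14 and 13). The share of all genes at that unadjusted p was not computed. Counting every probe set gave 18 and 15 calls among 57 probe sets, and quantile scaling 12 for genotype. Over all genes, limma called 528 of 9834 for genotype in the main fit and 1311 of 9850 with quantile scaling. Median centring called 741, cyclic loess 932, and every probe set 1435 of 16936. A member called for genotype under such a setting alone thus met a looser test. The HIF1A hypoxia term had a limma adjusted p of 3.6e-153 with quantile scaling, against 4.4e-07 in the main fit. Members at least 2-fold apart numbered 3 in the WT-labelled pair, hypoxia against normoxia (6 counting every probe set). Between those labelled KD and WT in normoxia the number was 1, against 2 with the median over probe sets or every probe set and 0 with a pseudocount of 64 or a 3-fold threshold. In hypoxia it was 1, against 2 with median centring or a pseudocount of 1, and 0 with the higher floor, a pseudocount of 64 or a 3-fold threshold. Terms that changed sign were small in all but CDKN1A. They were CCN1 for hypoxia (-0.011 with quantile scaling, -0.013 with cyclic loess, -0.12 with the median over probe sets), SMAD4 for hypoxia (-0.010 with cyclic loess) and LATS2 for hypoxia (-0.031 with the median over probe sets). The rest were TEAD1 for genotype (-0.055 with that median), ACTA2 for genotype (-0.0046 with a pseudocount of 64) and CDKN1A (-0.34 and -0.044 with that median). Apart from the construction of each alternative, the cause was not tested. No paired analysis was possible because each group has 1 array and the labels give no replicate numbers.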
